A study of Mus musculus with 6 samples.

Results

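MicroRNAs that mark blood cells and endothelial cells were counted in libraries of a cultured mouse epicardial cell line, as a check of how pure the cultures were. The rows were taken from the deposited count table by name. They are miR-451a, miR-144, miR-486a and miR-486b of red blood cells, miR-142a, miR-150 and miR-223 of white blood cells and platelets, and miR-126a and miR-126b of endothelial cells, with either arm. The table lists 14 such rows among 1028 mature microRNAs, and no row for miR-144-5p, miR-486b-5p or miR-223-5p. Of the 14 rows, 7 passed the filter on low counts and were tested between the groups.

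The study compared cells of the line that received an empty-vector lentivirus (EV, 3 libraries) with cells that received an Hdac3 sgRNA lentivirus for CRISPR/Cas9 knockout (KO, 3 libraries). Hdac3 is a histone deacetylase that works in repressor complexes. The labels place all cultures in high-glucose Dulbecco's Modified Eagle Medium with fetal bovine serum. Whether the knockout cells were 1 clone, how the line was made and how long the cells were cultured are not given in the sources used here. GEO's labels do not say whether the 3 libraries of a group are separate cultures. The p-values therefore reflect only how far these libraries differ from one another, which may be technical. Small-RNA libraries do not measure Hdac3 mRNA, so the knockout was not checked here.

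The libraries held 11824881 to 13412774 counts each. EV 3 and KO 2 stood apart from the other 4 in miR-451a, and changes are given with and without them. Values are given as reads, and as CPM, which are reads per 1000000 of the library total after scaling by TMM factors, edgeR's correction for differences in composition. With this scaling 1 read was worth 0.0637 to 0.0892 CPM, and a library with 0 reads of a microRNA could still hold up to 0.191 to 0.268 CPM, the level of 3 reads. Intervals of reads within a library are exact Poisson 95% intervals. Intervals and limits cover counting error only, since the reads carry no molecular identifiers that the labels mention. The 6 microRNAs listed as mesenchymal markers were all present: miR-21a-5p, miR-143-3p, miR-145a-5p, miR-199a-3p, miR-199a-5p and miR-214-3p. All 6 of them were tested, they summed to 593902 to 842707 CPM, and none was called. Whether they mark epicardial cells in particular was not tested. miR-21a-5p alone made up 513964 to 763066 CPM of that sum, while miR-145a-5p stood at 279 to 399 CPM. The 6 epithelial rows, mostly miR-200 family members, summed to 41.4 to 50.3 CPM in EV and 25.3 to 27.3 CPM in KO. Of the 4 tested, 2 were called lower, miR-200a-3p and miR-200b-3p, while miR-200c-3p and miR-429-3p were not called. Of all 460 microRNAs tested, 12 were called lower.

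miR-144 and miR-451a are made together as 1 transcript in maturing red blood cells, where miR-451a becomes one of the most abundant small RNAs. miR-451a is unusual in that Argonaute 2, and not Dicer, cuts its precursor. miR-126 lies inside Egfl7, a gene of the vessel lining, and its 3p arm supports the response of endothelial cells to VEGF. miR-142, miR-150 and miR-223 are hallmarks of blood-forming cells, with miR-150 in mature lymphocytes and miR-223 in myeloid cells and platelets. MicroRNAs recognise target messages mainly through the seed, which is bases 2 to 8.

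The mature sequences of 9 of the 14 rows were found in RefSeq (GRCm38.p6), and those that the results turn on are shown here 5′ to 3′ with the seed in capitals. The first pair comes from 1 transcript but differed in reads, and the last 3 lie on opposite strands of 1 locus.
mmu-miR-451a: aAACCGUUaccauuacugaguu
mmu-miR-144-3p: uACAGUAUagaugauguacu
mmu-miR-126a-3p: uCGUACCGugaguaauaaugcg
mmu-miR-126b-3p: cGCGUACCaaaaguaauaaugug
mmu-miR-126b-5p: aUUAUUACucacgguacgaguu
The 9 sequences have 9 distinct seeds. Among the 849 names of the table whose sequence was found, no other name has any of these seeds, and the remaining names of the 1028 were not searched.

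The hairpins Mir144 (chr11:78073005-78073070) and Mir451a (chr11:78073170-78073241) lie on the plus strand of chromosome 11 with 99 bases between them (GRCm38). Mir451b is annotated at the same coordinates as Mir451a on the minus strand, and GENCODE M21 has no host gene over either hairpin. Mir126a (chr2:26591357-26591429) lies on the plus strand inside Egfl7, where annotated Egfl7 transcripts have an exon. Mir126b (chr2:26591363-26591420) is its antisense partner on the minus strand. Mir142 (chr11:87756864-87756927) lies in an intron of the long noncoding RNA gene Mir142hg, and Mir223 (chrX:96242817-96242926) in an exon of the noncoding gene F630028O10Rik.

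miR-451a, the red blood cell marker, was high in 1 library of each group and at 3 to 30 reads in the other 4. The EV libraries held 14, 30 and 613 reads, which come to 0.892 CPM (EV 1), 2.45 CPM (EV 2) and 54.7 CPM (EV 3). The KO libraries held 3, 786 and 7 reads, which come to 0.243 CPM (KO 1), 62.7 CPM (KO 2) and 0.573 CPM (KO 3). In these bulk libraries fewer cells of a type and less RNA per cell cannot be told apart. The groups overlapped throughout, and the highest library stood 258-fold above the lowest. Beside this range the 2 high libraries lay close together. Their read intervals did not overlap, at 565 to 664 reads in EV 3 and 732 to 843 reads in KO 2. In CPM the intervals just overlapped, at 50.5 to 59.2 and 58.4 to 67.2. As a share of all counts miR-451a reached 50.3 per 1000000 in EV 3 (exact binomial 95% interval 46.4 to 54.4) and 61.8 in KO 2 (57.5 to 66.3).

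KO did not differ detectably from EV in miR-451a. The means were 19.3 ± 30.6 CPM in EV and 21.2 ± 35.96 CPM in KO (SD, n = 3 each). The log2 change of KO over EV was 0.14 (SE 1.64, edgeR quasi-likelihood adjusted p = 0.970), with a 95% interval of -3.53 to 3.82 that leaves room for large differences either way. Without EV 3 the change was 3.69 (SE 1.71, edgeR adjusted p = 0.202), and without KO 2 it was -5.51 (SE 1.88, edgeR adjusted p = 0.139), so each of these libraries set the direction when the other was left out.

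With EV 3 and KO 2 both left out, miR-451a was called lower in KO, with KO over EV at -1.96 on the log2 scale (SE 0.61, edgeR adjusted p = 0.0223). That call rests on the 14 and 30 reads of EV 1 and EV 2 against the 3 and 7 reads of KO 1 and KO 3. It was 1 of 7 members tested in that fit, where 18.7% of all 470 microRNAs tested were called. The 2 libraries were left out because of their miR-451a values, so this value is a description of the remaining 4 and no independent test.

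**Figure D1:**
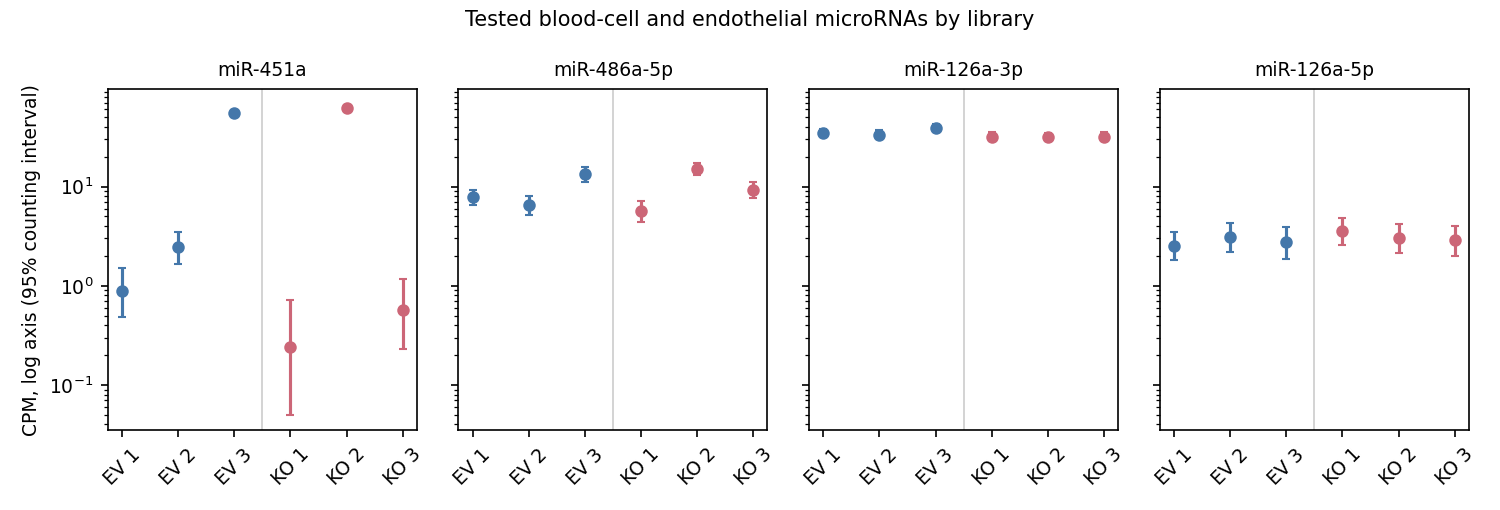
CPM of miR-451a, miR-486a-5p, miR-126a-3p and miR-126a-5p on a log axis in the 3 EV (blue) and 3 KO (red) libraries, with points for each library and bars for the exact Poisson 95% interval of its reads. miR-451a spans 0.243 to 62.7 CPM with EV 3 and KO 2 on top, miR-486a-5p spans 5.68 to 15.1 CPM with the same libraries on top, and both arms of miR-126a stay level.

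miR-144-3p, which is cut from the same transcript as miR-451a, had 1 read in all 6 libraries together, in EV 2. In EV 3 and KO 2 it had 0 reads, which allows up to 0.268 and 0.239 CPM. miR-451a therefore had at least 204-fold more reads than miR-144-3p in EV 3 and at least 262-fold more in KO 2, taking 3 reads as the limit in each library. Adaptor ligation favours some small RNAs over others, so such ratios between microRNAs describe these libraries and not the molecules in the cells.

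miR-486, which is abundant in red blood cells and is also made in muscle, was present in every library at a low level. mmu-miR-486a-5p had 123, 80 and 149 reads in EV 1, EV 2 and EV 3 (7.83, 6.53 and 13.3 CPM). It had 70, 189 and 113 reads in KO 1, KO 2 and KO 3 (5.68, 15.1 and 9.25 CPM). The groups overlapped, and EV 3 and KO 2 were again the highest library of their group, though the spread from lowest to highest was 2.66-fold and not 258-fold. The log2 change was 0.12 (SE 0.35, 95% interval -0.67 to 0.92, edgeR adjusted p = 0.868), from 9.22 ± 3.59 CPM in EV to 10.001 ± 4.74 CPM in KO (SD, n = 3 each). Without EV 3 and KO 2 it was 0.054 (SE 0.23).

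The 3 miR-486 rows behaved as 1 signal. mmu-miR-486a-3p and mmu-miR-486b-3p followed mmu-miR-486a-5p to within 9 and 2 reads in each library. miR-486a and miR-486b are antisense partners, and the table cannot tell their reads apart. Their log2 changes were 0.07 (SE 0.35) and 0.12 (SE 0.36), and neither was called. In EV 3 and KO 2 miR-451a had 4.11 and 4.16 times the reads of miR-486a-5p, against 0.114 and 0.375 in EV 1 and EV 2 and 0.0429 and 0.0619 in KO 1 and KO 3.

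Markers of white blood cells and platelets were almost absent. The 5 listed rows, miR-142a-3p, miR-142a-5p, miR-150-3p, miR-150-5p and miR-223-3p, summed to 3, 19 and 5 reads in EV 1, EV 2 and EV 3 and to 3, 8 and 2 reads in KO 1, KO 2 and KO 3. None passed the filter, so none was tested. The library that was highest here was EV 2, in which miR-451a was low, at 1.61 reads per 1000000 (exact binomial 95% interval 0.967 to 2.51). KO 2 followed at 0.629 (0.272 to 1.24), the only interval that overlaps the one of EV 2. The intervals of EV 1, EV 3, KO 1 and KO 3 all end below it, the highest of these ends being 0.957 in EV 3.

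miR-150-5p of lymphocytes was the only one of these rows with reads in every library, 10 in EV 2 and 1 to 3 in the other 5. miR-223-3p of myeloid cells and platelets had 2 reads, both in EV 2, and miR-142a-3p 3 reads, all in EV 2. Its antisense partner miR-142b was listed with the same 3 reads, so these cannot be assigned to a strand. miR-142a-5p had 4 reads each in EV 2 and KO 2, and miR-150-3p 1 read each in EV 3 and KO 2.

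**Figure D2:**
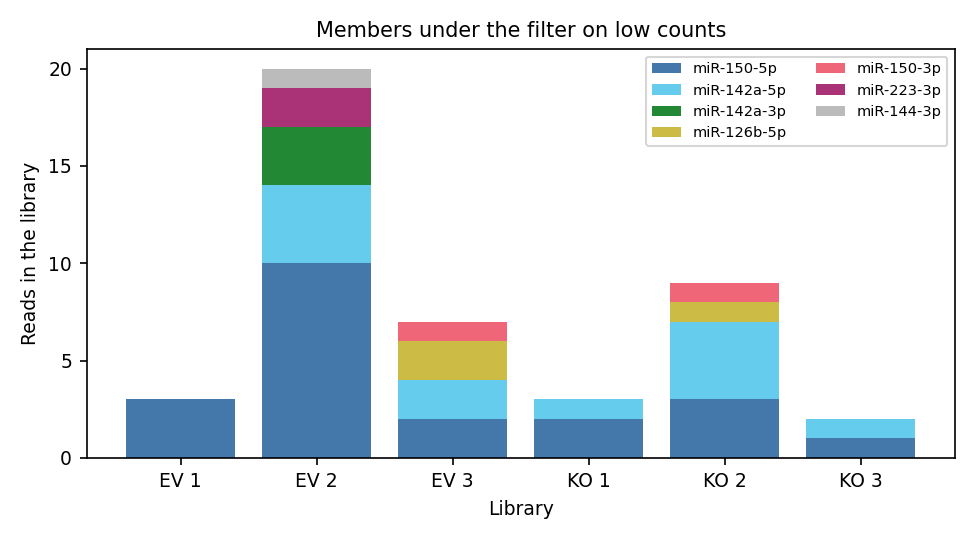
Reads of the 7 members under the filter on low counts, stacked by microRNA for each of the 6 libraries. EV 2 holds 10 reads of miR-150-5p and all the reads of miR-142a-3p, miR-223-3p and miR-144-3p, while no other library reaches 10 reads in all.

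The endothelial marker miR-126a-3p was present at an even, low level in all libraries. mmu-miR-126a-3p had 545, 410 and 441 reads in EV 1, EV 2 and EV 3 (34.7, 33.5 and 39.4 CPM). It had 393, 397 and 389 reads in KO 1, KO 2 and KO 3 (31.9, 31.7 and 31.9 CPM). All 3 KO values lay below all 3 EV values, the only tested member whose groups did not overlap, while 29.1% of all tested microRNAs had groups that did not overlap. The log2 change was -0.17 (SE 0.12, 95% interval -0.45 to 0.10, edgeR adjusted p = 0.441), from 35.8 ± 3.10 CPM to 31.8 ± 0.112 CPM (SD, n = 3 each), and was not called. Without EV 3 and KO 2 it was -0.093 (SE 0.15).

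The KO libraries lay closer together than counting error gives on average, since reads of this number carry a counting SD of 1.60 CPM against the SD of 0.112 CPM found. The order of the 2 groups held with library size alone as the scaling, where the change was -0.32 (SE 0.16, edgeR adjusted p = 0.276). That scaling moved the median log2 change of all tested microRNAs from -0.01 to -0.16, so the change relative to the median was similar.

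The other arm, miR-126a-5p, was the minor one. It had 40, 38 and 31 reads in EV 1, EV 2 and EV 3 (2.55, 3.10 and 2.77 CPM) and 44, 38 and 35 reads in KO 1, KO 2 and KO 3 (3.57, 3.03 and 2.87 CPM). The groups overlapped, and the log2 change was 0.17 (SE 0.18, 95% interval -0.24 to 0.59, edgeR adjusted p = 0.598). Reads of the 3p arm outnumbered those of the 5p arm 10.8-fold to 14.2-fold in EV and 8.93-fold to 11.1-fold in KO, again a range in which the groups overlap.

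Antisense names at this locus repeat 1 signal and add little of their own. mmu-miR-126b-3p had exactly the reads of miR-126a-5p in all 6 libraries. The reverse complement of the miR-126b-3p sequence shown above lies within the Mir126a hairpin from its base 7 on, so the same small RNAs can be counted under both names. miR-126b-5p, which overlaps miR-126a-3p on the other strand but starts and ends 3 bases off it, had 3 reads in total, 2 in EV 3 and 1 in KO 2, against 2575 of miR-126a-3p. Other opposite-strand pairs could be listed only where both sequences were found. That leaves out miR-126a-5p with miR-126b-3p, which were identical at 226 reads each. Among 19 pairs of single-locus microRNAs listed in this way, 4 had identical counts, each of 3 to 8 reads in all. Counting these, 8 pairs had total reads within 5% of each other, including pairs with many reads, and the other 11 differed by more.

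Counting near-equal rows once, the 7 tested members hold 4 signals, namely miR-451a, miR-486, miR-126a-3p and miR-126a-5p. None of the 7 was called in the comparison of all 6 libraries (edgeR quasi-likelihood, Benjamini-Hochberg adjusted p under 0.05). Before adjustment 0 of them were under 0.05, and 0 were called by DESeq2 or by limma-voom. DESeq2 gave miR-451a, miR-126a-5p and miR-126b-3p no adjusted p, so it could not call them. Of all 460 microRNAs tested, 7.61% were called. The median log2 change was 0.12 over the 7 members and -0.01 over all tested, with 6 members above 0 and 1 below. Rows that share reads were each counted in these figures, and of the 4 signals only miR-126a-3p lay below 0. The authors' deposited table of 78 microRNAs that differ between KO and EV holds 0 of the 14 rows. Together, with shared reads counted once, the members took 0.00493% to 0.0102% of the counts in EV and 0.00381% to 0.0112% in KO, the highest being EV 3 and KO 2.

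**Figure D3:**
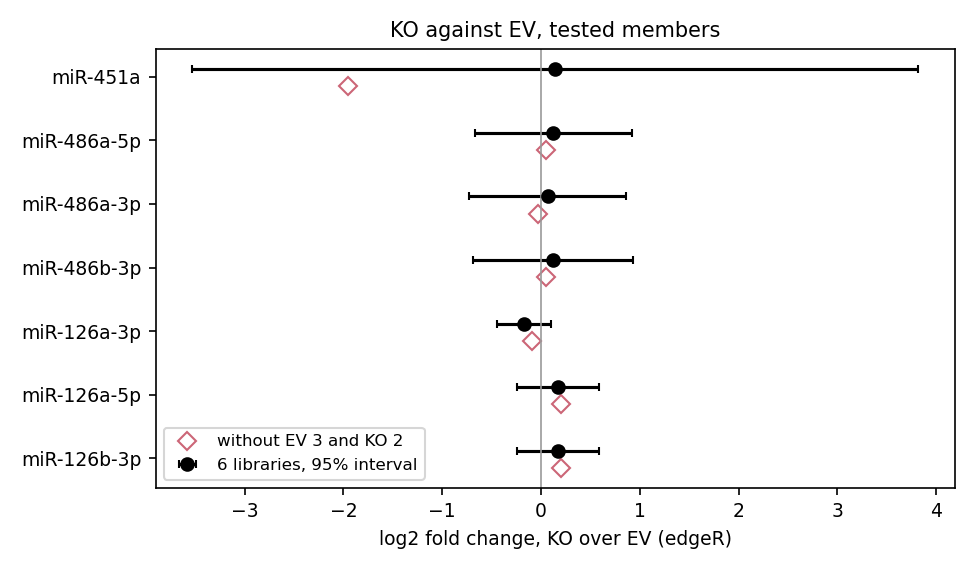
Log2 fold change of KO over EV for the 7 tested members, with all 6 libraries (black, bars for the 95% interval) and without EV 3 and KO 2 (red diamonds, drawn without an interval). All 7 intervals include 0, the one of miR-451a runs from -3.53 to 3.82, and only miR-451a moves far when the 2 libraries are left out, to -1.96.

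Other microRNAs were searched for the same pattern over the 6 libraries, among 247 tested ones with a mean of at least 10 CPM. The likeness measure was Pearson's r of log2(CPM + 1), given as a description, since 2 high libraries set it for miR-451a. The 5 most like miR-451a were miR-9b-3p and miR-9-5p (r = 0.90 each), miR-128-3p (0.86), let-7d-5p (0.78) and miR-185-5p (0.77). miR-9 is a microRNA of the nervous system and miR-128 is abundant there, while let-7d and miR-185 are made widely. miR-9b-3p is an antisense name of miR-9 with nearly the same counts.

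Of the 5 neural names, miR-9-5p, miR-9-3p and miR-124-3p were highest in EV 3 and KO 2, as miR-451a was. The EV libraries had 11.3 (EV 1), 32.6 (EV 2) and 51.4 CPM (EV 3) of miR-9-5p. The KO libraries had 19.1 (KO 1), 57.1 (KO 2) and 15.2 CPM (KO 3). The neuronal miR-124-3p had 0, 2 and 8 reads in EV 1, EV 2 and EV 3 and 0, 9 and 0 reads in KO 1, KO 2 and KO 3. EV 2 stood between the others in both. The whole neural list of 5 names summed to 14.1 to 56.6 CPM in EV and 17.3 to 60.1 CPM in KO, while its members miR-219a-5p and miR-138-5p were lower in KO 2 than in KO 1, at 1.12 against 2.11 CPM and 0.399 against 0.568 CPM. For miR-128-3p, EV 3 and KO 2 were also on top, at 110 and 107 CPM against 88.1 to 101 in the other 4. miR-363-3p, named after its values were seen, had 17 reads in EV 3, 16 reads in KO 2 and 0 to 5 reads in each other library. Whether the red blood cell and neural values come from 1 source was not tested.

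Markers of liver, muscle and pancreas had mixed patterns. The liver microRNA miR-122-5p had 40 reads in KO 1 and 5 to 10 reads in each of the other 5, and the 2 liver rows summed to 0.490 to 0.637 CPM in EV and 0.638 to 3.41 CPM in KO. The 5 listed muscle rows summed to 26.3 to 27.3 CPM in EV and 21.05 to 25.1 CPM in KO, nearly all of it miR-206-3p of skeletal muscle. Among the muscle rows with few reads, miR-133a-3p had 1 read in EV 3, 1 read in KO 2 and none elsewhere. In contrast, miR-499-5p had 1, 4 and 0 reads in EV 1, EV 2 and EV 3 and 2, 0 and 2 reads in KO 1, KO 2 and KO 3. Of the 4 pancreas and endocrine names, miR-375-3p had 0, 3 and 3 reads in EV 1, EV 2 and EV 3. Its reads in KO 1, KO 2 and KO 3 were 0, 3 and 1. For miR-216a-5p the reads were 5, 11 and 0 in EV and 9, 16 and 2 in KO, in the same order. Neither passed the filter, and the other 2 were tested. The more abundant, miR-7a-5p at 1253 to 2376 CPM over the 6 libraries, was not called (log2 change 0.30, edgeR adjusted p = 0.356). The other, miR-217-5p of the exocrine pancreas, was called higher in KO, while 7.61% of all tested microRNAs were called. The levels of miR-217-5p were 4.08 to 6.34 CPM over the EV libraries against 10.4 to 12.7 CPM over the KO libraries (log2 change 1.05, edgeR adjusted p = 0.00992). Its groups did not overlap, which held for 29.1% of all tested microRNAs.

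**Figure D4:**
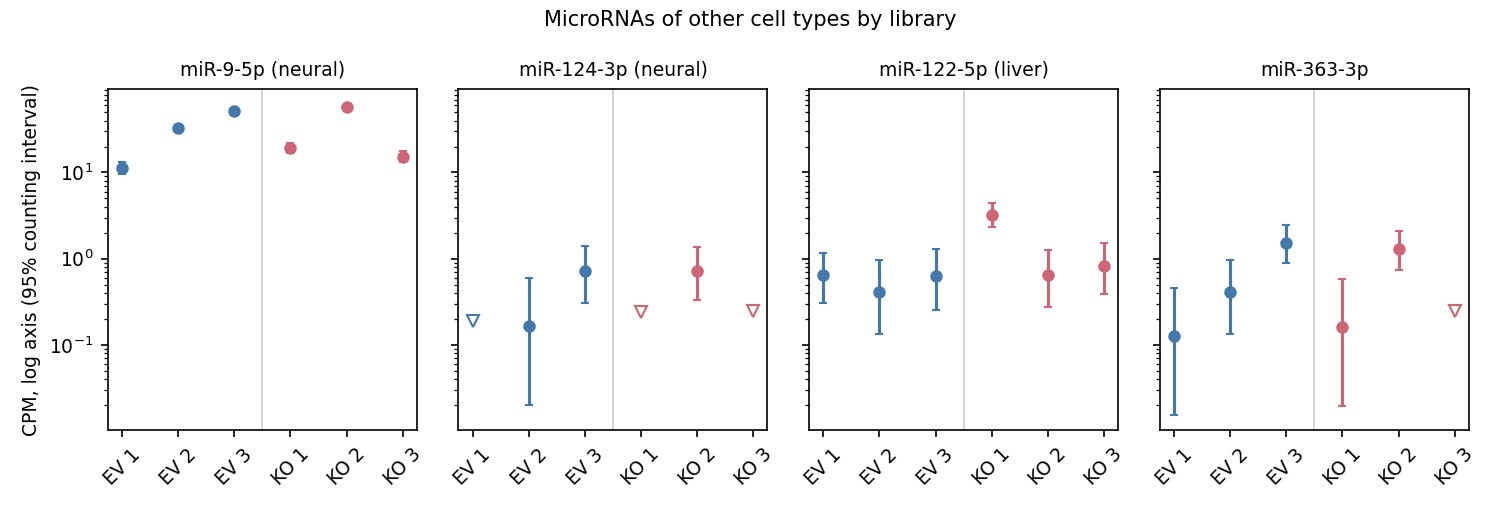
CPM of miR-9-5p, miR-124-3p, miR-122-5p and miR-363-3p on a log axis in the 3 EV (blue) and 3 KO (red) libraries, with bars for the exact Poisson 95% interval and open triangles at the level of 3 reads where a library had 0. miR-9-5p, miR-124-3p and miR-363-3p are highest in EV 3 and KO 2, while miR-122-5p is highest in KO 1 at 3.24 CPM.

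miR-126a-3p had a different set of nearest profiles. The 5 most like it were miR-181a-5p (r = 0.98), miR-181d-5p (0.97), miR-494-3p (0.95), miR-199a-5p (0.94) and miR-541-5p (0.94), all highest in EV 3 and none of them called. In EV 1, EV 2 and EV 3 miR-181a-5p had levels of 413, 381 and 458 CPM, and in KO 1, KO 2 and KO 3 levels of 354, 369 and 365 CPM. Its groups did not overlap either, and its log2 change was -0.20 (edgeR adjusted p = 0.173).

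MicroRNAs known from blood and vessels but also made by many other cells ranged from under to far over the levels of the members. Of 16 listed, 10 lay above every member in every library and 5 below miR-126a-3p in every library. Of 18 such names, 16 are in the table and 15 were tested, with a median log2 change of 0.15. Of these 15, 1 was called higher and 0 lower, while 7.61% of all tested microRNAs were called. The one called was miR-23a-3p of a cluster that acts in vessel growth, at 0.49 (edgeR adjusted p = 0.00346). The most abundant was miR-10a-5p, a Hox-cluster microRNA, at 10941 to 14998 CPM in EV and 13487 to 14515 CPM in KO (log2 change 0.15, edgeR adjusted p = 0.477). miR-155-5p of activated immune cells stood at 47.5 to 61.6 CPM in EV and 48.2 to 60.7 CPM in KO (log2 change -0.02, edgeR adjusted p = 0.951).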

How the data were processed

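MicroRNAs were sequenced from 3 EV and 3 KO samples. According to the labels' protocols, RNA was taken up in Trizol and libraries were made with a NEBNext small-RNA kit and selected on a gel. Per the submitters' processing notes, Bowtie, mm10 and DESeq 1.8.3 were used. How reads that match several names were counted and the miRBase release are not given in the sources used here. Deposited values are whole-number counts per mature microRNA. The deposited TPM, which the file headers name, scale each count to a library total of 1000000 and were not used. The authors' deposited comparison table holds, per microRNA, group means as a normalized signal, the log2 fold change and p-values before and after adjustment, and served only to see whether members are listed.

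KO was compared with EV on the counts with edgeR 4.0.16 (R 4.3.3): TMM factors, filterByExpr (minimum count 10, minimum total 15), quasi-likelihood F test, two-sided, Benjamini-Hochberg adjustment over all 460 tested microRNAs at 0.05. Alternatives used DESeq2 1.42.0, limma 3.58.1, other scalings and filters, a replicate block and libraries left out. The script was tested on simulated data. Every row that the naming rule takes was reported, and the named context microRNAs were the 5 nearest profiles, called members of the blood and vessel list and its most abundant one. Single markers of other tissues, miR-155-5p and miR-363-3p were added after their values were seen. The members and lists were chosen with earlier results of these data known. Within each group, every pair of libraries differed by more than counting noise (smallest chi-square 9040 on 459 degrees of freedom).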

Additional observations from a re-analysis of the deposited data

How the results depend on the processing

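No member was called under any of the 16 alternatives except with EV 3 and KO 2 left out together, where 1, miR-451a, was called. The scalings were DESeq2's size factors, the library size with no factor, and TMM factors or library sizes without miR-21a-5p, the last chosen after seeing the data. The tests were DESeq2 and limma-voom, and the filters none and at least 10 CPM in 3 libraries, which left only miR-126a-3p to test. DESeq2 gave no adjusted p for miR-451a, miR-126a-5p and miR-126b-3p. miR-126a-3p stayed below 0 in 16 of 16 alternatives (-0.32 to -0.09, adjusted p 0.163 to 0.749) and miR-126a-5p and miR-126b-3p above 0 in 15 of 15.

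The log2 change of miR-451a lay below 0 with limma-voom (-0.92), with the replicate block (-1.01) and without EV 3 and KO 2 (-1.96), and ran from -5.51 to 3.69 with single libraries left out. miR-486a-3p lay below 0 with library size alone (-0.050), library sizes without miR-21a-5p (-0.026), the replicate block (-0.0012) and without EV 3 and KO 2 (-0.033), and ran from -0.35 to 0.39 with single libraries left out. In the same omissions miR-486a-5p ran from -0.29 to 0.47 and miR-486b-3p from -0.30 to 0.48, both below 0 without EV 2 and without KO 2. Deviations from the group mean correlated at 0.30, -0.04 and -0.22 between same-numbered EV and KO libraries (numbers 1, 2 and 3). Those of unlike-numbered libraries ran from -0.49 to 0.43, so this check cannot tell whether a number marks a shared batch. With the replicate block 34 microRNAs were called, against 35 without it. Of 28 group means recomputed under other scalings, 1 moved by more than its SD, that of miR-126a-3p in KO, to 30.2 CPM with library size alone. Depth limits the members with few reads, since 0 reads in a library still allow the level of 3.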
